A study of Mus musculus with 12 samples.

Results

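The 6 libraries described here come from mouse fibroblasts that had been given heart transcription factors and were then collected by a heart reporter, out of 12 libraries in the series. They were set against both end points of the conversion to ask which genes lay outside the range of either, that is, higher or lower in every reprogrammed library than in every starting fibroblast library and every heart muscle library. Of 15059 genes tested, 1363 were above both end states and 1806 were below both. The cells were embryonic fibroblasts (MEFs) of the C57BL/6 strain, kept for 3 weeks with empty vector (E), with Gata4, Hand2, Mef2c and Tbx5 (GHMT), or with the same 4 factors and Akt (AGHMT), and each group had 3 libraries. Heart muscle was represented by isolated adult ventricular cardiomyocytes (CM) of the same strain, also in 3 libraries. GHMT and AGHMT cells were collected by sorting on GFP driven by the alpha-myosin heavy chain promoter, whereas no sort is named for E or CM, so the sort and the factors cannot be told apart in any difference between these cells and the end states. The labels do not state separate cultures or animals, so the p-values measure only the spread among these libraries, which may be technical. GHMT and AGHMT are called the sorted libraries together.

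Direct reprogramming forces the genes of a few developmental transcription factors in a fibroblast, so that it takes on heart muscle features without passing through a stem cell. Gata4 is a zinc finger factor, Hand2 a basic helix-loop-helix factor, Mef2c a MADS-box factor and Tbx5 a T-box factor, and all are active in the embryonic heart. A converting cell may hold any level between those of fibroblast and muscle, but the embryonic heart, its pacemaker tissue and its outer covering also use genes that neither end state uses strongly.

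The sorted cells were checked against marker genes first. The summed level of 10 ventricular muscle markers was 730 to 1269 reads in 1e6 gene reads after TMM scaling (trimmed means of log ratios), written CPM, in GHMT and 4125 to 4580 in AGHMT, beside 8.79 to 18.6 in E and 30439 to 61140 in CM. That of 12 fibroblast markers was 2582 to 4452 in GHMT and 6508 to 7512 in AGHMT, against 11813 to 13854 in E and 721 to 813 in CM. By both sums the sorted libraries lay between the end states. Single fibroblast markers did not all do so: mean Col3a1 in AGHMT and mean Prrx1 in GHMT were above E, and Pdgfrb was below both end states. In bulk RNA, fewer cells of a type and less RNA per cell cannot be told apart. Akt1, the added kinase gene, had 1.31, 13.5 and 13.7 CPM in GHMT, 7.30, 12 and 19.6 in AGHMT, and 104, 64.1 and 21 in E. The Akt1 counts of AGHMT thus overlapped those of GHMT and lay below those of E, so they do not show the added gene. Whether the gene counts miss transcripts of a vector was not tested, and the libraries are called AGHMT-labelled. The GHMT libraries were shallow, with 1872558 to 2200815 reads in genes against at least 5120230 in any other library, and 27.8% to 72.2% of these came from mitochondrially encoded genes. In GHMT 1 a single mitochondrial gene, mt-Nd6, took 43.1% of the reads, and the TMM factor of that library was 0.347. A gene with 3 reads in GHMT 1 stands at 3.93 CPM, and a level below that is not resolved in that library.

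Genes above both end states made up 9.05% of the genes tested, and genes below both made up 12%. Each had to be free of overlap between the sorted and end-state libraries and to pass edgeR's quasi-likelihood test (Benjamini-Hochberg adjusted p under 0.05) against E and against CM in the same direction. The fold changes and adjusted p-values against E and CM given for single genes are those that chose them, and describe them. Ranks alone gave 1410 genes above (9.36%) and 1906 below (12.7%). For a gene above, the median of the smaller of its 2 log2 fold changes was 1.65. For a gene below it was -3.01, or -2.37 with every group without a read held at 3 reads pooled over its libraries, beside -0.32 (-0.18 when so held) over all genes tested. Genes above had a median level of 115 CPM in the sorted libraries, and genes below had 1.01 CPM, where counts are few: 530 genes below had no read in any GHMT library. At the edge of the rule, Zfp52 was just above, with 28.87 CPM in its lowest sorted library and 28.86 in its highest end-state library, and Zfyve16 was just outside, with 69.42 and 69.49. On the lower side Tnfaip1 was just inside, with 50.65 CPM in its highest sorted and 50.67 in its lowest end-state library, and Cct7 just outside, with 38.37 and 38.24. A further 589 genes passed both tests upward and 1418 downward with libraries that overlapped.

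**Figure D1:**
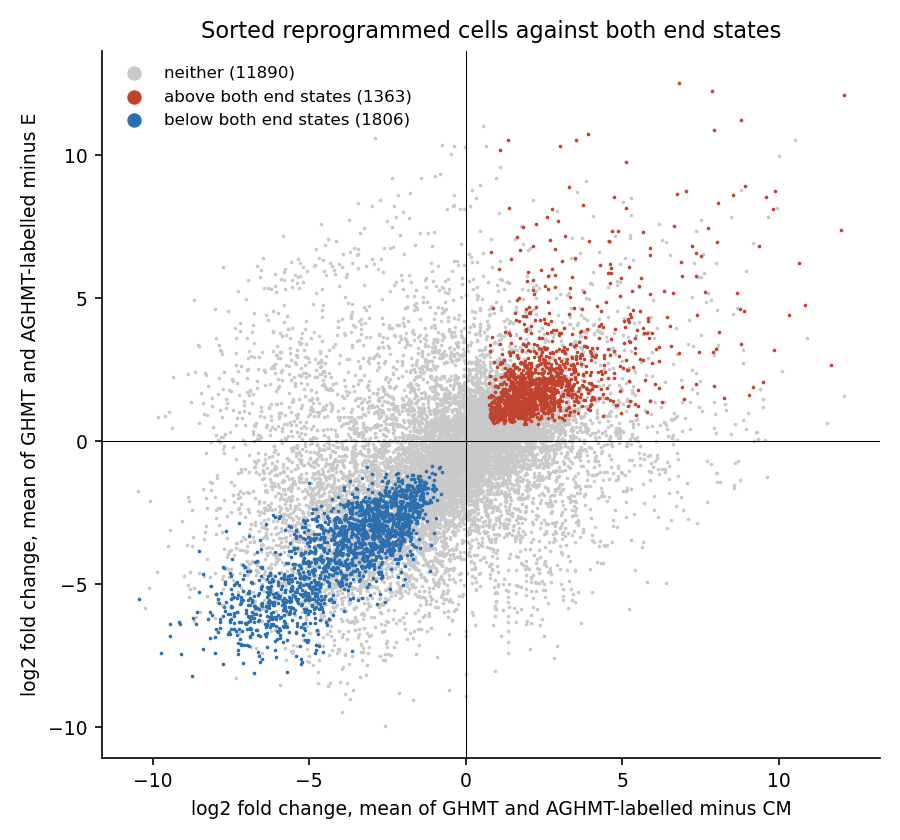
Each point is a gene: the log2 fold change of the mean of GHMT and AGHMT-labelled libraries over CM (horizontal) and over E (vertical). The 1363 genes above both end states (red) fill the upper right, the 1806 below both (blue) fill the lower left, and the 11890 others are grey.

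Both sets moved with depth and base composition, and their part in the calls was not tested beyond the following counts. The median GC content of the longest transcript was 42.55% for genes above, 54.32% for genes below and 48.84% for all genes tested. After a correction for transcript GC content within each library, 746 genes (4.95%) were above and 1510 (10%) below, and these held 609 of the 1363 and 1038 of the 1806. With every library thinned to 612458 reads outside mitochondrial genes, 993 of 9065 genes (11%) were above and 853 (9.41%) below. With libraries scaled to total counts, 397 were above and 388 of these were among the 1363. With the deeper AGHMT-labelled libraries alone ranked and tested against E and CM, 946 of the 1363 genes and 1180 of the 1806 were called. By the rule these libraries lay outside both end states in all 1363 and 1806 genes, so the counts show only which genes passed the tests. Of all genes tested, 9.42% were called above and 9.58% below in this way, and the counts are not read against those shares. With each of the 4 contrasts of GHMT and AGHMT-labelled libraries with E and CM required to pass, 932 of the 1363 (6.19% of genes tested) and 943 of the 1806 (6.26%) remained. Leaving out E 1 left 856 genes above and leaving out AGHMT-labelled 3 left 905. In every one of the 27 alternatives that kept both sorted groups, 203 of the 1363 and 217 of the 1806 held their call. A gene not tested in a setting counted there as lost.

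A list of 26 tested genes covered the sinoatrial node and atria, the pacemaker and upper chambers of the heart. Of these, 5 (19.2%) were above both end states, among them Hcn4, Vsnl1, Tbx18 and Gja5, and 2 (7.69%) were below (Cacna1g and Gjc1). Of all genes tested, 9.05% were above and 12% below, and these shares stand beside every list count that follows. All 7 called genes held after the GC correction. The median of the smaller log2 fold change over the 26 was 0.21 (0.40 after the GC correction), but -0.33 with groups without a read held at 3 pooled reads. Hcn4 (chr9:58823412-58863175, mm10, plus strand) encodes the main channel of the pacemaker current. It had 2918, 2527 and 1271 CPM in GHMT, 241, 506 and 572 in AGHMT-labelled libraries, 6.61, 10.3 and 9.45 in CM, and 0.201, 0.169 and 0.0917 in E. The GHMT libraries were all above the AGHMT-labelled ones, and the CM libraries all above E. The log2 fold change of the sorted mean was 12.54 ± 0.61 (SE) over E (edgeR adjusted p = 4.4e-09) and 6.82 ± 0.47 over CM (7.14e-08).

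Tbx18, a T-box factor of the sinus node and of the outer lining of the embryonic heart, had 376, 350 and 323 CPM in GHMT and 246, 174 and 235 in AGHMT-labelled libraries. E had 18.1, 21.1 and 27.7 and CM had 4.01, 7.35 and 2.75, so E lay nearer to the sorted libraries. The log2 fold changes were 3.63 ± 0.34 over E (edgeR adjusted p = 1.69e-06) and 5.86 ± 0.39 over CM (5.97e-08). Gja5 encodes connexin 40, the gap junction protein of atrial muscle and the conduction system, and had 19.7, 34.9 and 44.0 CPM in GHMT, 43.3, 50.8 and 38.0 in AGHMT-labelled libraries, 10.7 to 12.6 in CM and 0.135 to 0.519 in E. Vsnl1, a neuronal calcium sensor, had 0.521 to 9.62 CPM in GHMT from 16 reads, 15.5 to 23.9 in AGHMT-labelled libraries and at most 0.201 in E or CM. Gjc1, which encodes connexin 45, another connexin of conducting tissue, was at 0, 4.69 and 7.56 CPM in GHMT and 7.09 to 8.70 in AGHMT-labelled libraries, below the 24.2 to 47.2 of CM and the 24.3 to 34.3 of E. Its log2 fold change was -2.53 ± 0.45 against CM (adjusted p = 0.000292). The list thus had members called on both sides, as did all genes tested.

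Of 25 cardiac transcription factor genes tested, 5 (20%) were above both end states (Mef2c, Tbx5, Myocd, Mef2a and Tbx20) and Srf (4%) was below. These shares stand beside 9.05% and 12% of all genes tested. After the GC correction 3 of the 5 held, and over the alternatives 3 to 6 members were above. Tbx5, a forced gene, had 151, 133 and 177 CPM in GHMT, 63.8, 105 and 109 in AGHMT-labelled libraries, 16.9 to 20.8 in CM and 3.06 to 4.63 in E. It was 2.64 ± 0.31 above CM on the log2 scale (edgeR adjusted p = 6.91e-06). Mef2c, also forced, had 246, 191 and 216 CPM in GHMT and 163, 156 and 175 in AGHMT-labelled libraries, against 59.8 to 147 in CM and 12.8 to 17.1 in E. Its distance to CM was small, 0.84 ± 0.28 (adjusted p = 0.0179), and after the GC correction it turned to -0.51. The other forced factors were not above CM: Gata4 stood at 2.62 to 15.6 CPM in GHMT, 7.45 to 10.9 in AGHMT-labelled libraries and 20.3 to 68.0 in CM, and Hand2 at 1.31 to 9.38, 5.69 to 6.39 and 6.54 to 35.6. Counts of a forced gene may hold transcripts of the vector and of the cell's own gene, which the gene counts do not separate.

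Tbx20, a T-box factor that was not forced, was at 1446, 1480 and 979 CPM in GHMT and 1104, 783 and 994 in AGHMT-labelled libraries. CM had 152, 182 and 79.7 CPM and E had 0.736 to 1.07, so the gene rose past the adult level, with a log2 fold change of 3.02 ± 0.32 over CM (edgeR adjusted p = 3.39e-06). Myocd encodes myocardin, a partner of serum response factor, and had 472, 290 and 125 CPM in GHMT, 102, 83.4 and 104 in AGHMT-labelled libraries, 47.3 to 65.4 in CM and 0.845 to 1.53 in E. Srf, the serum response factor gene, had 0.687 to 1.31 CPM in GHMT from 4 reads, 4.46 to 5.34 in AGHMT-labelled libraries, 7.15 to 43.8 in CM and 5.93 to 22.9 in E. Its call was lost after the GC correction. Myh6, the gene of the sort reporter, was between the end states, with 28.8 to 71.5 CPM in GHMT, 104 to 223 in AGHMT-labelled libraries, 2268 to 17410 in CM and 0.519 to 1.56 in E.

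The bone morphogenetic protein (BMP) pathway, which signals through paired surface receptors to Smad proteins and from there to the Id genes, had 6 of 25 tested members above both end states and 1 below. Those above covered a ligand (Bmp2), 2 antagonists or pseudoreceptors (Chrdl1 and Bambi), 2 receptors (Bmpr1a and Bmpr2) and a Smad (Smad1). Bmp2 had 45.9, 87.0 and 41.9 CPM in GHMT, 23.4, 13.6 and 16.5 in AGHMT-labelled libraries, 0.817 to 1.37 in CM and 0.101 to 0.275 in E. GHMT lay above AGHMT-labelled libraries throughout, and the log2 fold change over CM was 4.86 ± 0.53 (edgeR adjusted p = 3.67e-06). Chrdl1, a secreted BMP antagonist on the X chromosome (chrX:143285674-143394262, mm10, minus strand), had 398, 129 and 65.3 CPM in GHMT and 635, 433 and 542 in AGHMT-labelled libraries, and 1.86 to 3.03 in all 6 end-state libraries. It was 6.83 ± 0.58 above E (adjusted p = 6.51e-07) and 7.24 ± 0.61 above CM (3.77e-07).

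The receptor gene Bmpr2 had 1713, 1758 and 1036 CPM in GHMT and 604, 417 and 511 in AGHMT-labelled libraries, against 71.8 to 148 in CM and 106 to 180 in E. Bmpr1a was at 868 to 1184 CPM in GHMT, 443 to 569 in AGHMT-labelled libraries, 63.4 to 152 in CM and 122 to 223 in E. Both differed from E by at least 2.09 on the log2 scale (edgeR adjusted p = 2.15e-05 for Bmpr2 and 0.000103 for Bmpr1a). Bambi, a receptor-like inhibitor, was at 4.81 to 61.0 CPM in GHMT and lost its call after the GC correction and after thinning. Id1, a helix-loop-helix target of the pathway, went the other way, with 1.31, 0 and 0 CPM in GHMT, 1.69, 2.15 and 4.91 in AGHMT-labelled libraries, 9.66 to 26.1 in CM and 9.09 to 11.5 in E. In the AGHMT-labelled libraries alone its log2 fold change was -1.86 ± 0.63 against E (adjusted p = 0.026) and -2.46 ± 0.65 against CM (0.00663).

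Guidance genes, whose secreted ligands and receptors steer axons and growing vessels, had 7 of 31 tested members above and 2 below both end states. The ligand Sema3d had 1248, 836 and 675 CPM in GHMT and 192, 151 and 174 in AGHMT-labelled libraries. CM had 3.09 to 10.3 and E had 8.43 to 13.1, and the log2 fold change over E was 5.17 ± 0.42 (edgeR adjusted p = 4.24e-07). Its relative Sema3e was at 67.4 to 184 CPM in GHMT, 39.0 to 46.0 in AGHMT-labelled libraries, 3.89 to 7.37 in E and at most 0.503 in CM. Among receptors, Plxna4 (73.4 to 205 CPM in GHMT, 102 to 110 in AGHMT-labelled libraries, 15.5 to 27.5 in E and CM) and Unc5c (60.5 to 141, 93.5 to 140 and at most 45.2) were above. Nrp1, a co-receptor of class 3 semaphorins, was nearer to the end states, with 349 to 847 CPM in the sorted libraries and 169 to 268 in the others, and lost its call after the GC correction. Sema5a and Ntn4 were the other members above, and L1cam and Sema3f, both without a read in GHMT, the members below. The count above ranged from 2 to 10 over the alternatives.

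Of 35 growth factor and insulin-like growth factor genes tested, 5 were above both end states (Igf2, Igf1, Pdgfa, Tgfb2 and Angpt1), and Igfbp6 was below. Igf2, a fetal growth factor gene at chr7:142650766-142666816 (mm10, minus strand), had 7465, 8268 and 8237 CPM in GHMT, 2417, 2068 and 3068 in AGHMT-labelled libraries, 569, 649 and 651 in E, and 93.0, 99.4 and 74.7 in CM. The 4 groups fell in that order without overlap. The sorted mean was 2.85 ± 0.24 above E on the log2 scale (edgeR adjusted p = 6.4e-07) and 5.65 ± 0.29 above CM (1.72e-08). Pdgfa, a platelet-derived growth factor chain, had 166, 247 and 170 CPM in GHMT, 114, 80.4 and 154 in AGHMT-labelled libraries, 11.9 to 14.6 in CM and 12 to 17.6 in E. Tgfb2, a transforming growth factor ligand, was at 188 to 349, 177 to 232, 9.10 to 19.5 and 25.1 to 34.6 CPM in the same order. Igf1 and Angpt1 (log2 fold change over the nearer end state of 1.60 ± 0.33 and 1.86 ± 0.32) were no longer called after the GC correction.

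The genes that stood farthest above both end states included neuropeptide and secretory genes. Gpr83, a G protein-coupled receptor gene (chr9:14860210-14870789, mm10, plus strand), had 34.1, 64.1 and 45.4 CPM in GHMT and 20.3, 20.6 and 23.3 in AGHMT-labelled libraries, and no read in any end-state library. It was at least 1409-fold higher than in E and at least 337-fold higher than in CM, with a floor of 3 reads pooled over the 3 libraries of a group. Crh, which encodes corticotropin-releasing hormone, had 21, 42.2 and 84.5 CPM in GHMT, 24.5, 22.2 and 31.8 in AGHMT-labelled libraries, no read in E and 4 reads in CM (0, 0.201 and 0.344 CPM). Scg2 encodes secretogranin, a protein of secretory granules, and had 174, 128 and 147 CPM in GHMT, 195, 199 and 193 in AGHMT-labelled libraries, 0.52 to 1.32 in E and a single read in CM. Its log2 fold change over E was 7.38 ± 0.45 (edgeR adjusted p = 2.48e-08), and both sorted groups were at similar levels.

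Other genes of this leading set had other roles. Ap1s3, a subunit of a clathrin adaptor, had 115, 174 and 81.1 CPM in GHMT, 67.2, 56.4 and 75.6 in AGHMT-labelled libraries and 0.172 to 1.18 in the end states, which was 6.96 ± 0.52 above E on the log2 scale (edgeR adjusted p = 2.02e-07). Clca3a2, a member of a chloride channel accessory family, had 12.5 to 57.0 CPM in GHMT, 87.7 to 105 in AGHMT-labelled libraries and at most 0.245 in E or CM. Nr1h5, a nuclear receptor, was at 4.12 to 15.7 CPM in the sorted libraries with 3 reads in E and 1 in CM, and Tcp11x2 at 38.8 to 249 CPM with 3 reads in E and 5 in CM. Gpr165 was at 1.37 to 29.3 CPM, with 3 reads in each end state, so no fold change is given for these 3 genes. All the leading genes kept their call after the GC correction.

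**Figure D2:**
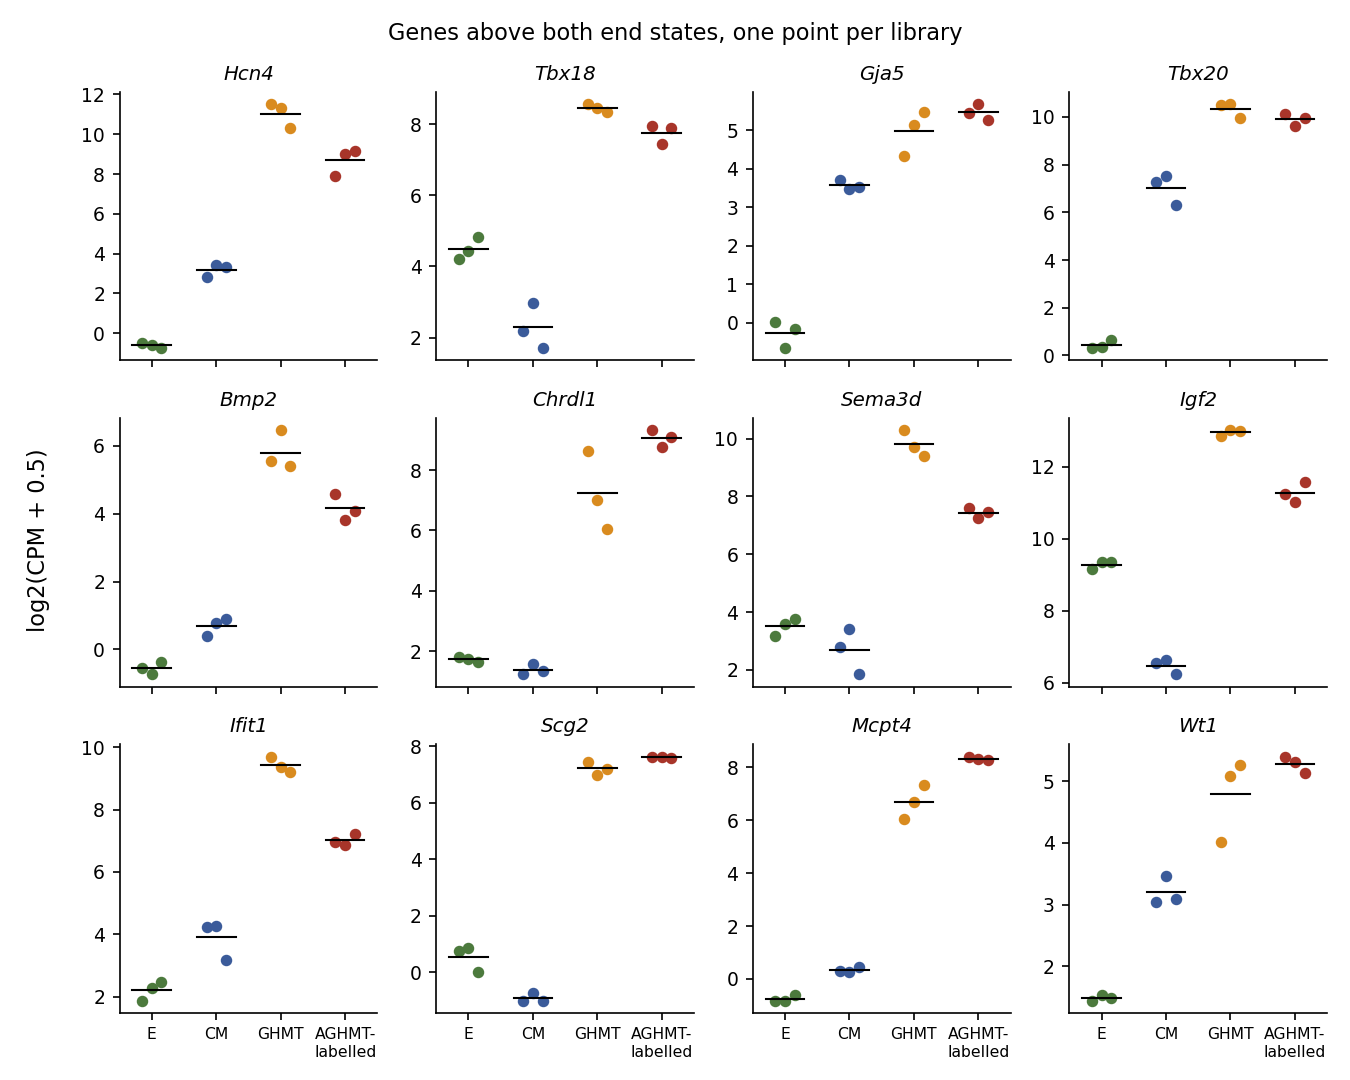
Levels of 12 genes above both end states, as log2(CPM + 0.5), with 1 point per library and the group mean as a bar. In every panel all GHMT and AGHMT-labelled points lie above all E and CM points. Hcn4 ranges from 241 to 2918 CPM in the sorted libraries and Igf2 from 2068 to 8268.

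Interferon response genes, which detect viral RNA and limit its translation, had 8 of 42 tested members above both end states and 1 below, and the median of the smaller log2 fold change over the 42 was 0.36, or 0.078 after the GC correction. Sensors (Ifih1, Tlr3), effectors (Ifit1, Ifit2, Oas3, Eif2ak2) and Ifi44 and Samd9l were above. Many such genes carry an interferon-stimulated response element, whose core was searched as GAAA, any 2 bases and GAAA again on both strands of 300-base RefSeq promoters (GRCm38.p6, 250 bases before to 50 after the start). Of the 8 genes above, 4 had a promoter with the core, as did 13 of 23 other tested members of the list with a promoter. By promoters, 3.99% of those of all genes above, 2.18% of those of genes below and 3.1% of those of all genes tested held it. The 4 matches shown are those in promoters of list members called above both end states. They are given on the strand of the gene, 5′ to 3′, with the core or its reverse complement in capitals.
Ifit1 (chr19:34640760-34640838, plus strand): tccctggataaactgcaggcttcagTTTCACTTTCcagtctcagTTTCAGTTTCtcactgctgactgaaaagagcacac
Oas3 (chr5:120777700-120777759, minus strand): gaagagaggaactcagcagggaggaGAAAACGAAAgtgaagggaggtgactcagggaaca
Eif2ak2 (chr17:78882535-78882564, minus strand): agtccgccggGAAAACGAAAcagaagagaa
Ifih1 (chr2:62646206-62646235, minus strand): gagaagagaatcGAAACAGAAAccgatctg
The first core begins 104 bases before the start in Ifit1 and 75 before it in Oas3, and 18 and 32 bases after it in Eif2ak2 and Ifih1. A match is a description of these letters and not a bound site.

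Ifit1, whose core occurs at a pair of positions, encodes a protein that binds viral RNA. It had 832, 666 and 590 CPM in GHMT, 124, 116 and 149 in AGHMT-labelled libraries, 18.4, 18.9 and 8.59 in CM, and 3.16, 4.33 and 5.04 in E. The 4 groups did not overlap, with GHMT highest, and the log2 fold change was 6.17 ± 0.38 over E (edgeR adjusted p = 3.27e-08) and 4.28 ± 0.35 over CM (2.91e-07). Ifih1, the cytoplasmic sensor MDA5, had 131, 102 and 126 CPM in GHMT, 40.7, 35.2 and 38.9 in AGHMT-labelled libraries, 10.8 to 19.5 in CM and 5.02 to 7.43 in E. Samd9l, an antiviral factor, had 342 to 427 CPM in GHMT, 151 to 183 in AGHMT-labelled libraries, 28.9 to 73.4 in CM and 17.3 to 37.2 in E.

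Oas3, which makes a second messenger that activates an RNase, rested on few reads outside one library: 7.87, 9.38 and 75.6 CPM in GHMT and 2.92, 1.60 and 2.73 in AGHMT-labelled libraries, with 5 reads in E and 1 in CM. Eif2ak2, the kinase PKR, was at 181, 193 and 267 CPM in GHMT, 188, 172 and 191 in AGHMT-labelled libraries, 19.4 to 45.3 in CM and 63.5 to 102 in E, giving a log2 difference of 1.28 ± 0.30 from E (edgeR adjusted p = 0.00228). Ifit2, Ifi44 and Tlr3 were above by 1.93, 2.04 and 1.82 against their nearer end state and were not called after the GC correction. Irf1, a transcription factor of the same response, was below, with 0.654 to 1.32 CPM in AGHMT-labelled libraries, 1.71 to 15.1 in CM and 1.47 to 15.3 in E, and 1 read in GHMT. Over the alternatives the number of members above ranged from 4 to 10. B2m, the light chain of MHC class I, was also above (582 to 1226 CPM in the sorted libraries, 228 to 440 in the others) but not after the GC correction, and with thinning added its difference was -0.053.

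Of 7 tested markers of the mesothelium, the lining of the heart and body cavities, 3 were above both end states and none was below. Wt1, a zinc finger factor of that lining, had 15.7, 33.3 and 37.8 CPM in GHMT, 41.7, 39.1 and 34.8 in AGHMT-labelled libraries, 7.73, 10.6 and 8.07 in CM and 2.22 to 2.40 in E. Its log2 fold change over CM was 1.94 ± 0.38 (edgeR adjusted p = 0.000607). Bnc1, another zinc finger factor, had 21 to 55.7 CPM in GHMT, 15.7 to 18.3 in AGHMT-labelled libraries and 0.906 to 2.79 in the end states. Upk1b, a uroplakin, was at 11.3 to 29.6 CPM in the sorted libraries and 3.09 to 7.81 in the others. The summed level of the whole list was 55.1 to 124 CPM in GHMT, 113 to 114 in AGHMT-labelled libraries, 29.3 to 35.9 in CM and 14.8 to 22.5 in E. Defining members were low in GHMT, where Krt19 had no read, Upk3b had 3 and Msln had 4.

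Aldh1a1, a retinaldehyde dehydrogenase that makes retinoic acid, was at 177, 170 and 168 CPM in GHMT and 168, 188 and 213 in AGHMT-labelled libraries, against 8.59 to 16.8 in CM and 4.39 to 5.30 in E. Both sorted groups overlapped, and the log2 fold change over CM was 3.78 ± 0.30 (edgeR adjusted p = 2.52e-07). It was the single member above among 15 retinoic acid genes tested, of which 3 were below (20%, beside 12% of all genes tested). Of these 3 genes, 1 held after the GC correction, and over the alternatives 1 to 4 were below. Among the 3 was the receptor gene Rarg, with 1 read in GHMT, 1.58 to 4.90 CPM in AGHMT-labelled libraries and 7.80 to 35.9 in the end states. Among 11 small leucine-rich proteoglycans, which coat collagen fibrils, Lum and Dcn were above. Lum had 977, 1122 and 702 CPM in GHMT, 1422, 1046 and 1137 in AGHMT-labelled libraries, 50.7 to 126 in CM and 64.3 to 92.8 in E. Dcn was at 1253 to 2010 CPM in the sorted libraries and 192 to 472 in the others, and lost its call after the GC correction.

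Mcpt4, a protease gene otherwise known from mast cells (chr14:56059629-56062313, mm10, minus strand), had 65.5, 103 and 162 CPM in GHMT, 339, 317 and 309 in AGHMT-labelled libraries, 0.704 to 0.859 in CM and 0.0669 to 0.153 in E. AGHMT-labelled libraries were all above GHMT, and the sorted mean was 7.94 ± 0.45 above CM on the log2 scale (edgeR adjusted p = 1.94e-08). Of a list of 13 mast cell genes, 6 had enough reads to be tested, and of these Mcpt4 alone was called. A narrower set of 10 mast cell markers was read in every library whether tested or not, and 9 of them, among them Cma1 and Cpa3 (not tested) and Kit (tested), had no read in any GHMT library. In AGHMT-labelled libraries Kit had 66 reads and Cpa3 had 9, against 15833 of Mcpt4.

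Among 31 cyclins, CDK inhibitors and p53 targets tested, 7 were above both end states (Cdkn1b, Cdkn1c, Ccng1, Trp53inp1, Mdm2, Fas and Rb1) and Trp53 itself was below. Cdkn1c, an imprinted inhibitor of cyclin-dependent kinases, had 62.9, 77.6 and 129 CPM in GHMT, 236, 200 and 240 in AGHMT-labelled libraries and 12.7 to 18.9 in CM and E, a log2 fold change of 3.14 ± 0.31 over CM (edgeR adjusted p = 1.61e-06). Trp53inp1, a p53-induced nuclear protein, had 2023, 1950 and 900 CPM in GHMT, 1091, 798 and 1008 in AGHMT-labelled libraries, 131 to 219 in E and 12 to 41.1 in CM. Only these 2 of the 7 kept their call after the GC correction. Cdkn1b (p27) was at 241 to 485 CPM in GHMT, 113 to 161 in AGHMT-labelled libraries and 40.7 to 67.2 in the end states. Mdm2, the ligase that limits p53, differed from E by 0.73 ± 0.24 (adjusted p = 0.019), which turned to -0.40 when libraries were scaled to total counts. Trp53 had 3 reads in GHMT, 2.15 to 3.14 CPM in AGHMT-labelled libraries, 4.83 to 12.4 in CM and 11.8 to 51.2 in E.

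The pathway of the added kinase was covered by 25 tested genes of Akt, PI3K and mTOR. Of these, 4 (16%) were above and 6 (24%) below both end states, beside 9.05% and 12% of all genes tested. Gsk3b and Rheb, the small GTPase that switches on mTOR complex 1, were among those above, by 1.37 and 1.55 on the log2 scale against E, their nearer end state. Those below were Tsc2, which inhibits Rheb, Mlst8, Rps6kb2, Eif4ebp1, Pik3cd and Gsk3a. Mlst8, Rps6kb2 and Pik3cd had no read in GHMT, and Tsc2 had 5 reads there, 3.69 to 6.55 CPM in AGHMT-labelled libraries, 10.8 to 45.5 in CM and 7.80 to 33.3 in E. The transcript GC content was 46.1% for Gsk3b, 44.7% for Rheb and 48.2% to 59.8% for the members below. With libraries scaled to total counts none was above and 7 were below. After the GC correction 3 of the 4 above and 4 of the 6 below held. Over the alternatives the counts ranged from 0 to 5 above and from 1 to 12 below.

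Several programmes had few or no members outside the end states. Of 34 sarcomere genes only skeletal actin, Acta1, was below, and none was above, the list's medians being 5.39 over E and -5.34 against CM on the log2 scale. Among 27 fatty acid oxidation genes 1 was below, and their medians were 0.56 and -3.38. None of 26 mitosis genes, 15 macrophage markers or 11 tested endothelial markers was called. The summed macrophage level was 3.93 to 12.4 CPM in GHMT, 75 to 144 in AGHMT-labelled libraries, 197 to 279 in CM and 19.6 to 48.0 in E. The remaining 25 lists had 0 to 4 members above and 0 to 5 below, out of 5 to 41 genes tested in a list. Such counts are not all small as shares. Some of these lists passed the 9.05% above or the 12% below of all genes tested, and others had no member called on a side. Among the 25 lists, 4 of 21 endoplasmic reticulum chaperones were above (Dnajb9, Canx, Ero1l and Dnajc3), of which none held after the GC correction.

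**Figure D3:**
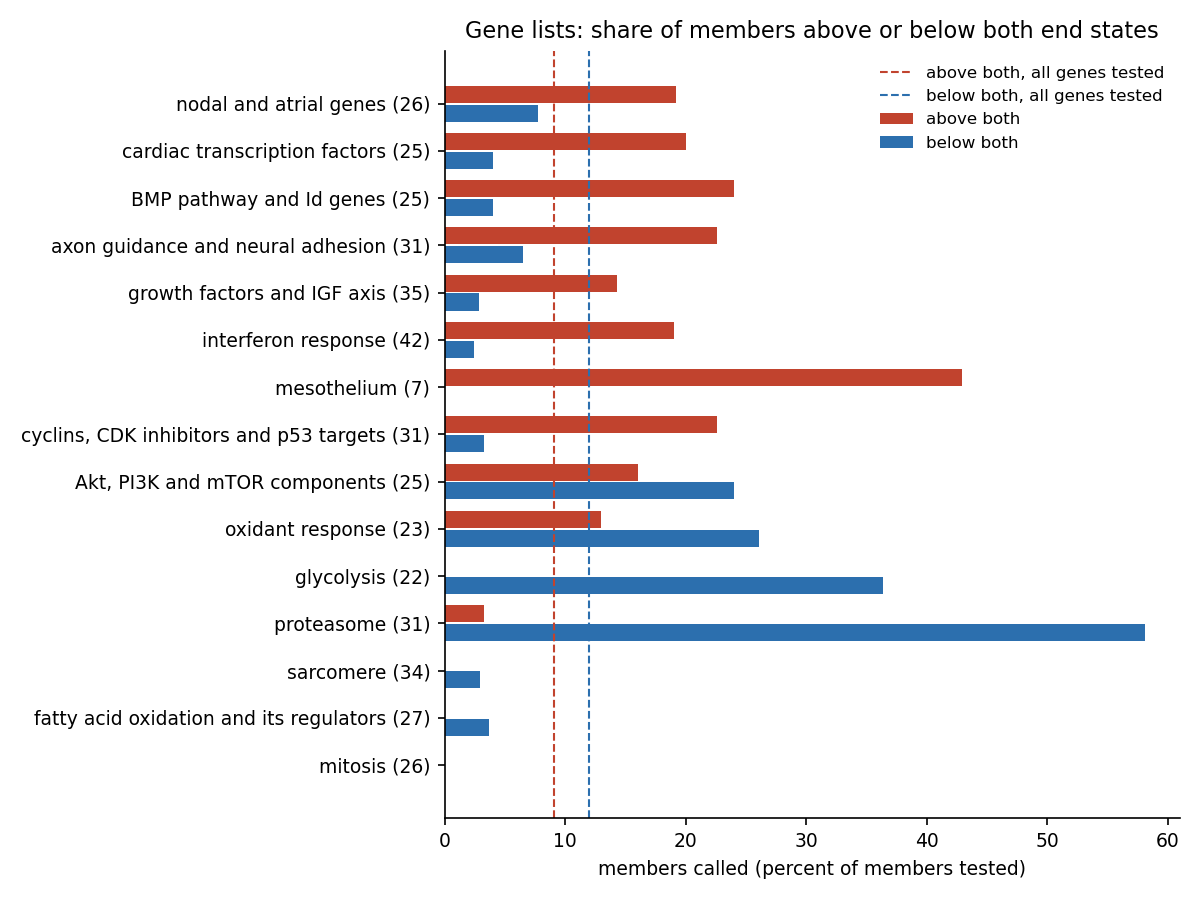
Share of tested members of 15 gene lists above (red) and below (blue) both end states, with the number tested in brackets. Dashed lines give the shares over all genes tested, 9.05% and 12%, and the proteasome stands out with 58.1% below.

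Proteasome genes formed the list with the highest share below both end states. Of 31 genes for subunits of this complex, which degrades tagged proteins, 18 were below (58.1%) and 1, Psmc6, was above. With AGHMT-labelled libraries alone ranked and tested, 14 were called below. The rule used these libraries, so that count is no separate support and is not read against a share. Over the alternatives the number below ranged from 12 to 21. Psmc3, an ATPase subunit of the cap, had 2.62, 6.77 and 5.50 CPM in GHMT, 10.1, 28.4 and 19.4 in AGHMT-labelled libraries, 146, 58.0 and 138 in CM, and 100, 107 and 29.4 in E. E 3 was the end-state library nearest to the sorted ones. The log2 fold change was -2.96 ± 0.45 against E (edgeR adjusted p = 0.000121) and -3.49 ± 0.46 against CM (2.23e-05). Psmc5 and Psmc4, other ATPases, were at 8.61, 12.4 and 7.63 CPM and at 3.07, 5.67 and 4.58 CPM in AGHMT-labelled libraries, with 7 reads each in GHMT, and at 26.7 to 106 and 18.6 to 62.4 CPM in the end states. The catalytic subunit gene Psmb6 and the ubiquitin receptor gene Psmd4 were also below, with log2 fold changes of -3.28 and -3.59 against the nearer end state. Psmc6, an ATPase gene with a GC content of 37.0%, was at 302 to 401 CPM in the sorted libraries and 108 to 264 in the others, and was below both end states after the GC correction (-0.81) and at -0.31 with total counts.

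Glycolysis, the breakdown of glucose to pyruvate, had 8 of 22 tested genes below both end states and none above. Ldha, lactate dehydrogenase A, rested on the most reads: 53.7, 44.3 and 59.8 CPM in GHMT (213 reads), 40.3, 73.9 and 43.6 in AGHMT-labelled libraries, 210, 202 and 268 in CM, and 348, 182 and 161 in E. Both sorted groups overlapped, and the log2 fold change was -2.13 ± 0.29 against E (edgeR adjusted p = 4.29e-05) and -2.11 ± 0.29 against CM (3.12e-05). Tpi1, triose phosphate isomerase, had 2.62 to 5.21 CPM in GHMT, 6.43 to 14.9 in AGHMT-labelled libraries, 49.2 to 272 in CM and 15.2 to 101 in E. Pkm, pyruvate kinase, had 8.25 to 13.0, 18.2 to 30.3, 40.9 to 365 and 43.2 to 318 CPM in the same order. Aldoa, Pfkl, Gpi1, Gapdh and Eno1 were the other members below, and 6 of the 8 held after the GC correction. Reads that matched several places were not counted, and several of these genes have near-identical pseudogenes, so their levels are uncertain.

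Of 23 oxidant response genes tested, 6 (26.1%) were below and 3 (13%) above, beside 12% and 9.05% of all genes tested. After the GC correction 4 of the 6 below and 2 of the 3 above held. Over the alternatives 2 to 7 were below and 1 to 4 above. Sod1, the cytosolic superoxide dismutase, had 1.31, 2.08 and 2.75 CPM in GHMT from 9 reads, 8.07, 10.5 and 6.27 in AGHMT-labelled libraries, 94.5, 53.5 and 84.0 in CM, and 31.7, 36.2 and 20.3 in E. GHMT, AGHMT-labelled, E and CM libraries followed in that order without overlap, and the log2 fold change against E was -2.80 ± 0.36 (edgeR adjusted p = 2.52e-05). Prdx6, a peroxiredoxin, was at 2.75 to 32.6 CPM in the sorted libraries and 34.4 to 104 in the others, and Gpx1, Gpx4, Nqo1 and Sod3 were the others below. Nfe2l2, the transcription factor NRF2 that drives this response, was among those above (136 to 380 against 63.9 to 122 CPM), but was at -0.20 when scaled to total counts. Gclm, which makes glutathione, was at 75.6 to 269 against 13.1 to 37.3 CPM.

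Ribosomal protein genes, a family picked after its values were seen, had 30 of 76 members (39.5%) below both end states and 1 (1.32%) above. Of all genes tested, 12% were below and 9.05% above. In GHMT, 10 of the 76 had no read. With AGHMT-labelled libraries alone ranked and tested, 31 were called below, which is no separate support, since the rule used these libraries. The family has many pseudogenes, and the same limit on uncounted reads holds. The count below ranged from 16 to 39 over the alternatives, and 19 of the 30 held after the GC correction.

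The genes that stood farthest below, among those with a mean of at least 10 CPM in both end states, were mostly without a read in GHMT. Eif2b5, a subunit of a translation initiation factor, had none in GHMT, 2.61, 6.17 and 3.60 CPM in AGHMT-labelled libraries, 22.7, 11.6 and 30.1 in CM, and 39.6, 23.8 and 11.8 in E. GHMT was at least 34.5-fold lower than E and at least 29.6-fold lower than CM, with 3 pooled reads as the floor. In AGHMT-labelled libraries the log2 fold change was -2.60 ± 0.61 against E (edgeR adjusted p = 0.00467) and -2.37 ± 0.60 against CM (0.00679). Hras, a small GTPase, had 0.60 to 1.49 CPM in AGHMT-labelled libraries, 4.93 to 24.2 in CM and 3.94 to 17.2 in E, and was at least 14.6-fold lower in GHMT than in E. Gpatch4 (2.54 to 3.36 CPM in AGHMT-labelled libraries, 10.4 to 30.4 in the end states), Suds3, part of a histone deacetylase complex (3.65 to 7.65 and 11.4 to 32.0), and Actr8, part of a chromatin remodeller (4.15 to 6.22 and 14.2 to 26.7), were likewise without reads in GHMT.

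Pfdn5, a chaperone of actin and tubulin, and Col5a3, a collagen chain, were in the same group, with 1.15 to 2.92 and 0.382 to 0.769 CPM in AGHMT-labelled libraries against 5.14 to 100.3 and 2.52 to 27.3 in the end states. Gsn, Flnc and Pdgfrb, chosen after their values were seen, were below with reads in every sorted library. Gsn, gelsolin, which severs actin filaments, had 3.93, 3.65 and 4.12 CPM in GHMT, 6.53, 11 and 10 in AGHMT-labelled libraries, 75.2, 59.9 and 446 in CM, and 245, 90.5 and 34.5 in E. Its log2 fold change was -4.37 ± 0.65 against E (edgeR adjusted p = 9.67e-05). Flnc, a muscle filamin, was at 1.31 to 4.58 CPM in the sorted libraries and 14.8 to 202 in the others, and Pdgfrb, a receptor of fibroblasts and pericytes, at 2.61 to 7.43 and 13.4 to 204.

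**Figure D4:**
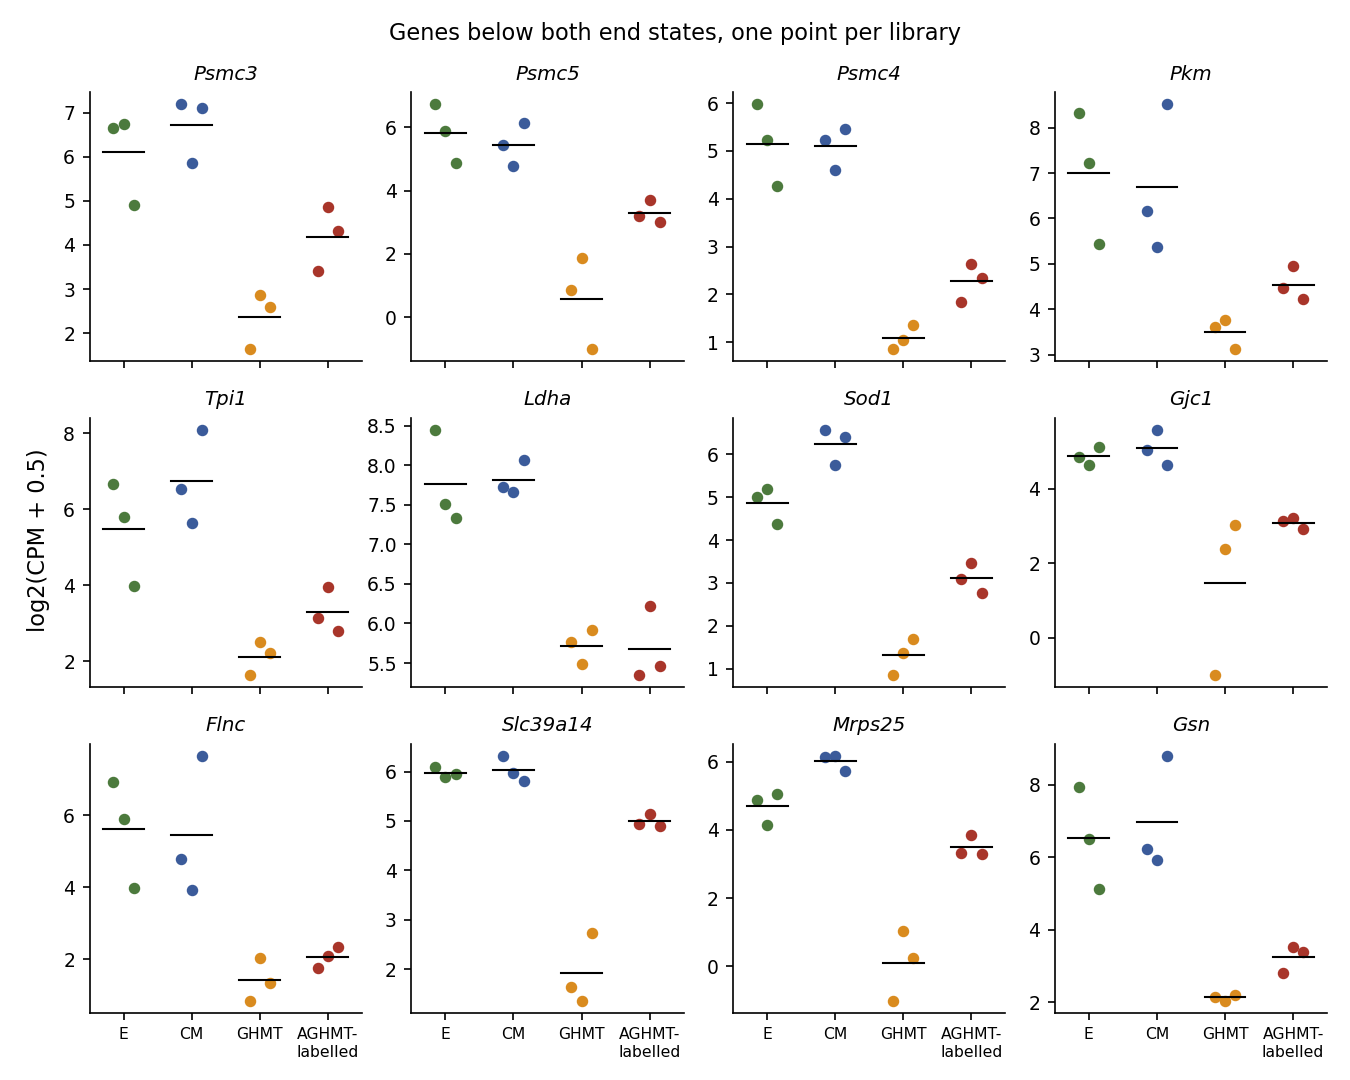
Levels of 12 genes below both end states, as log2(CPM + 0.5), with 1 point per library and the group mean as a bar. All GHMT and AGHMT-labelled points lie below all E and CM points. Points at the foot of the Psmc5, Gjc1 and Mrps25 panels are GHMT libraries without a read.

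The values of both sorted groups entered the choice of genes, so the contrast between AGHMT-labelled and GHMT libraries is given as a description, and nothing is read from its direction. Of the 1363 genes above both end states, 365 were lower and 11 higher in AGHMT-labelled libraries (27.6% in either direction), where 4.58% of all genes tested were lower and 13.2% higher. Of the 1806 genes below, 267 were higher (14.8%) and 1 lower, a share close to the 13.2% higher among all genes tested. In the 530 genes without a read in GHMT a difference could only be upward. The median log2 difference was -0.76 for genes above, 1.80 for genes below, and 0.63 over all genes tested. The counts moved with single libraries: without AGHMT-labelled 3 they were 31 lower and 19 higher among genes above, without AGHMT-labelled 2 they were 88 and 5, without AGHMT-labelled 1 they were 150 and 5, and without E 1 they were 98 and 34. Without GHMT 1, CM 1 or E 2 they were 237 and 9, 238 and 7, and 236 and 6. Among genes below, 447 were higher without AGHMT-labelled 3, 565 without E 1, 176 without E 2, 149 without AGHMT-labelled 1 and 81 without AGHMT-labelled 2.

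Named genes with the largest differences included Nrxn3, a synaptic adhesion gene, at 22.3, 15.6 and 35.1 CPM in GHMT and 1.15, 0.606 and 0.982 in AGHMT-labelled libraries. The groups did not overlap, with a log2 difference of -4.73 ± 0.73 (edgeR adjusted p = 0.00124). Cbln4, a secreted synaptic organiser, had 41.9, 5.21 and 4.12 CPM in GHMT and 0.826 to 2.07 in AGHMT-labelled libraries (-3.52 ± 0.92, adjusted p = 0.0222), and Smc1b, a cohesin subunit, 31.5, 25 and 2.06 against 0.936 to 2.23. GHMT 1 was the highest library for both. Among genes below, Slc39a14, a zinc transporter, had 2.62, 2.08 and 6.19 CPM in GHMT, 30.4, 34.8 and 29.5 in AGHMT-labelled libraries, 55.5 to 79.3 in CM and 58.5 to 67.4 in E, giving a difference of 3.10 ± 0.44 between the sorted groups (adjusted p = 0.0007). Mrps25, a mitochondrial ribosomal protein, had 4 reads in GHMT and 9.32 to 13.9 CPM in AGHMT-labelled libraries.

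Fibroblasts and heart muscle also differed from each other in part of these genes. In CM against E, 145 of the 1363 genes above were higher and 334 lower (35.1%), and 123 and 98 of the 1806 genes below (12.2%), where 42.0% of all genes tested differed. The rule used these E and CM values, so the shares are not read against that background. With libraries scaled to total counts 928 of the genes above and 365 of those below differed. Without E 2, 103 of the genes below differed between CM and E.

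The called genes shared features of sequence that the rule did not use. The share of genes above fell from 31.5% of 1081 genes with a transcript GC content of up to 40% to 0.814% of 2335 genes of 55% to 60%, and the share below rose from 0.463% to 28.5%. After the GC correction the same bins held 6.38% and 2.53% above, and 6.66% and 12.1% below. Transcripts of genes above were longer (median 4498 bases) than those of all genes tested (3257), and those of genes below were shorter (2696). The promoters of both sets, in contrast, were close in GC content, with medians of 62.3% above, 61.0% below and 60.3% for all genes tested. Pseudogenes made up 122 of the genes below (6.76%) and 9 of those above (0.66%), against 874 of all genes tested (5.8%).

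**Figure D5:**
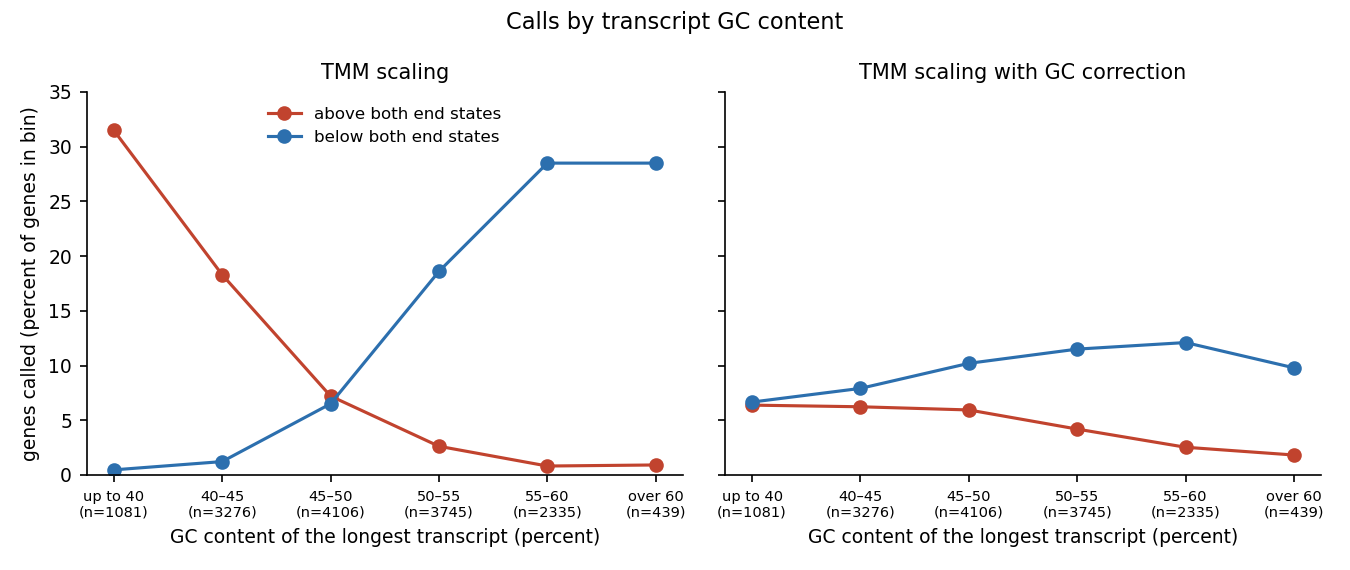
Share of genes called above (red) or below (blue) both end states in bins of transcript GC content, with the number of genes per bin, under TMM scaling (left) and with the GC correction (right). The left panel runs from 31.5% above at low GC to 28.5% below at high GC, and in the right panel no share passes 12.1%.

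Neighbours on the chromosome were called together in places. The longest run above was a cluster of 6 genes, 5 of them zinc finger genes, on chromosome 17 from 22337989 to 23193252 (mm10), made up of Zfp944, Zfp758, Zfp946, Gm16386, Zfp945 and Zfp40. Their log2 fold change over the nearer end state was 1.78 to 2.44, their median transcript GC content was 37.33%, and none of the 6 was above after the GC correction, which took Zfp945 to -0.038. Zinc finger genes named Zfp, a family picked after its values were seen, had 52 of 339 members above and 24 below both end states, and 10 above and 32 below after the GC correction, so the direction of the family turned with that setting. The 4 longest runs below held 6 genes each, on chromosomes 15, 17 and 19, with median GC contents of 56.0% to 57.3%. In those runs 3 to 5 of the 6 genes remained below after the GC correction.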

How the data were processed

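RNA was measured in 12 libraries, 3 each of E, GHMT, AGHMT and CM, made with a stranded kit per the labels' protocols. The authors aligned reads to mm10 with Bowtie2 2.0.6 and counted them with HTSeq, per the submitters' processing notes, and deposited a count of reads per gene for each library. The sources used here give neither the strand setting nor the annotation version. The authors also deposited a table of counts divided by size factors, a signal that was used in alternatives only. All values in that table (100%) came out as whole reads within 0.01, and the count test on those reads called 1306 genes above and 1696 below. Summary rows that name no gene were left out of library sizes. Reads outside any gene were 8.45% to 20.2% of the sum of gene reads, reads outside genes and reads ambiguous between genes.

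Of 43629 gene identifiers, 42548 matched GENCODE M21, which gave names, transcript length and GC content. Genes with low counts were removed with edgeR's filterByExpr (minimum count 10, minimum total 15). edgeR 4.0.16 in R 4.3.3 was fitted to all 4 groups with TMM scaling and robust quasi-likelihood tests, and each adjusted p is from that test with Benjamini-Hochberg adjustment over 15059 genes. A gene was called where the 6 sorted libraries did not overlap the 6 end-state libraries and where the sorted mean differed from E and from CM at an adjusted p under 0.05 in the same direction. The script was tested on simulated data. Replicate libraries differed by more than sampling noise. Genes named in the text were those farthest from the nearer end state, those with the largest AGHMT-GHMT difference, called members of the gene lists with the member of highest level in each, the forced genes and Myh6, and called neighbours on a chromosome. Any other gene named was chosen after its values were seen, and some genes the rule selects are not reported here. Genes and lists were chosen with earlier results of these data known. Intervals of 3 reads cover counting error only. Alternatives were other scalings and filters, DESeq2 1.42.0, limma 3.58.1, a replicate block, leaving out each library, a GC correction and thinning to 1 depth.

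Same-numbered libraries did not deviate together: their correlations ran from -0.804 to 0.158.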

Additional observations from a re-analysis of the deposited data

Results flagged for a closer look

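The difference between AGHMT-labelled and GHMT libraries was computed for each named gene, and the genes listed here had an adjusted p under 0.05 in edgeR. Both sorted groups entered the choice of called genes, and some genes were named for passing this contrast. The values are therefore a description, and nothing is read from their direction. Of all genes above, 365 were lower and 11 higher, but 31 and 19 without AGHMT-labelled 3. Values are AGHMT-labelled minus GHMT on the log2 scale.

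Among heart and signalling genes above both end states, Hcn4 was lower in AGHMT-labelled libraries (-2.35), as were Myocd (-1.61), Mef2a (-1.30), Bmp2 (-1.72), Bmpr1a (-1.04), Bmpr2 (-1.56), Igf2 (-1.67), Gsk3b (-0.96) and Cdkn1b (-1.32). The guidance genes Sema3d (-2.41), Sema3e (-1.71) and Nrp1 (-0.86) were lower too. Of the interferon response genes above both end states, those that passed were Ifit1 (-2.43), Ifit2 (-1.70), Ifi44 (-2.81), Ifih1 (-1.64), Oas3 (-3.69) and Samd9l (-1.14), while over all tested members of that list 8 were lower and 4 higher. Nrxn3 (-4.73), Smc1b (-3.73), Cbln4 (-3.52), Tcp11x2 (-1.86) and Zfp945 (-1.29) completed the lower genes.

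Higher in AGHMT-labelled libraries, and so farther from the end states, were Mcpt4 (1.54), Chrdl1 (1.46), Clca3a2 (1.77) and Cdkn1c (1.32). Among genes below both end states, Mrps25 (3.54), Rarg (3.53), Slc39a14 (3.10), Psmc5 (2.55) and Sod1 (1.94) were higher in AGHMT-labelled libraries. Against a floor of 3 pooled reads in GHMT, AGHMT-labelled libraries were at least 7.10-fold higher for Suds3, at least 7.05-fold for Actr8, at least 5.69-fold for Eif2b5 and at least 3.96-fold for Gpatch4.

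GHMT 1 had 3.18 alignments to several places per gene read, far from 1.32 and 1.55 in the other GHMT libraries. These alignments are not in the gene counts.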

How the results depend on the processing

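Genes above both end states numbered 889 with DESeq2's size factors, 397 with total counts, 834 on the deposited values by limma, 746 with the GC correction and 617 with the GC correction after thinning, and 856 to 1591 when 1 library was left out. Genes below numbered 2772 with DESeq2's size factors, 2744 with DESeq2, 2935 in GHMT alone, 943 when each of 4 contrasts had to pass, 853 after thinning and 558 with the GC correction after thinning, and 1666 to 2269 with 1 library left out. By ranks alone, genes above numbered 925 with DESeq2's size factors, 438 with total counts, 875 with limma, 2897 in AGHMT-labelled libraries alone, 770 with the GC correction and 648 when thinned too (990 to 1698 with 1 library left out), and genes below 2919 with DESeq2's size factors, 4555 in GHMT alone, 901 after thinning and 617 with both (1993 to 2499).

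AGHMT-labelled against GHMT, genes above that differed numbered 583 with DESeq2's size factors, 80 with total counts, 125 with TMM without mitochondrial genes, 791 with DESeq2, 578 with limma, 773 with the GC correction and 600 when thinned too (50 to 464 with 1 library left out). Genes below numbered 411 with total counts, 591 without mitochondrial genes, 555 with limma, 176 with the GC correction, 130 after thinning and 103 with both (81 to 565). CM against E, genes above numbered 928 with total counts (353 to 522), and genes below 365 with total counts, 345 with DESeq2, 113 with limma, 404 with the GC correction, 114 after thinning and 351 without GHMT 1 and CM 3 (103 to 300). The replicate block gave 1264 genes above and 1730 below, and 178, 124 and 113 for AGHMT-labelled against GHMT above and below and CM against E below; the labels share only a number, and it did not pair the libraries.

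Of 112 called genes named in the text, 86 kept their direction and call with the GC correction and 83 with total counts. With the GC correction after thinning, 98 of them were tested and 64 kept both. Named genes that turned were B2m (-0.053, GC correction after thinning), Mdm2 (-0.40, total counts), Mef2c (-0.51 with the GC correction, -0.24 when thinned too), Nfe2l2 (-0.20, total counts), Psmc6 (-0.31 with total counts, -0.81 with the GC correction, -0.75 when thinned too) and Zfp945 (-0.038, GC correction). The cause was not tested. The median of all genes moved against E by -1.08 with total counts and against CM by -0.65 with DESeq2's size factors. GC correction after thinning, the recovered reads and leaving out GHMT 1 with CM 3 were chosen after seeing the data. The depth of GHMT limits every low level there.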
